A study of Mus musculus with 42 samples.

Results

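Male mouse iPSCs exposed to the highest dose of BPS in this study, 100 µM, were compared with iPSCs given the ethanol vehicle alone. The comparison used 6 of the 42 RNA-seq libraries of the series, 3 per group, chosen by their sample titles. The series also held the same cells at 1 and 50 µM, other cell types, and a propagation experiment. BPS, a bisphenol used in place of BPA, was left on the cells for 24 h in sealed flasks with medium gassed to 5% oxygen, and the cells then recovered without it for 24 h before RNA was taken, so that the values describe cells 1 day after the exposure ended (the labels write this protocol out for 1 µM). Both groups came from a single iPSC line with a doxycycline-inducible reprogramming cassette, derived from fibroblasts of 1 fetus and grown first with and then without feeder cells, and the replicates were separate flasks that the study does not define as biological or technical. The p-values below therefore measure the spread between flasks of this line, pooled in 1 fit over these libraries and those at 1 and 50 µM.

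iPSCs self-renew through a network built on Pou5f1, Sox2 and Nanog, divide rapidly with a short G1 phase, and depend on high rates of ribosome production and amino acid metabolism. BPS can bind estrogen receptors, and bisphenols can also act on membrane receptors and on the aryl hydrocarbon receptor, a ligand-activated factor that switches on enzymes of xenobiotic metabolism. Responses to such compounds are usually read from the direct targets of these receptors and from the stress, growth and lipid programmes that cells adjust together.

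The values were CPM, reads of a gene scaled to the size of its library, taken back from the deposited log2 scale. Vehicle libraries held 27782761 to 30991751 counted reads and the 100 µM libraries 33363935 to 44524376, so that the exposed group was the more deeply sequenced. The marker genes of the cell type were present throughout: Pou5f1 stood at 750.4, 749 and 743 CPM in the vehicle and 744, 754 and 792 CPM at 100 µM, and Sox2 at 595, 584 and 583 and 572, 582 and 591 CPM. Fut4, which the study lists as a pluripotency marker, was below 0.1 CPM in all 6 libraries. The summed level of 10 fibroblast markers, of which Pdgfrb was higher and Thy1 lower (Thy1 not without vehicle replicate 1 or 3 or 100 µM replicate 3), was 6.35 to 7.63 CPM in the vehicle and 8.49 to 8.99 CPM at 100 µM, with Col3a1, Lum, Dcn, Postn and Prrx1 at or below 0.1 CPM in every library. In bulk RNA, fewer cells of a type and less RNA per cell cannot be told apart.

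Gene expression changed broadly and mostly by small amounts. Of 16349 genes tested with limma, 5023 were differentially expressed genes (DEGs) at an adjusted p of 0.05 or less, 30.7% of the genes tested. Among them 2503 were higher (15.3% of those tested) and 2520 lower (15.4%). The median log2 fold change was 0.42 among the higher DEGs and -0.24 among the lower ones, and 81.5% of the DEGs differed by less than 1.5-fold. Changes of at least 2-fold were found in 265 DEGs, 228 higher and 37 lower, of which 31 had a mean level of 5 CPM or more. The 3 exposed libraries all lay above or all below the 3 vehicle libraries for 8051 genes, 49.2% of those tested. With the libraries rescaled to their upper quartiles, 63.9% of the DEGs were higher instead of 49.8%, and the median of all genes moved by 0.04 on the log2 scale. Leaving out vehicle replicate 1 lowered the number of DEGs to 3322.

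The direction of change followed the level of expression. Below 1 CPM, 270 genes were higher and 41 lower, and the median log2 fold change of all 2179 genes in that range was 0.21. The balance passed through 0 between 10 and 50 CPM. Above 250 CPM, 51 genes were higher and 310 lower, with a median of -0.12 over 760 genes. A normalization that removes such a trend (cyclic loess, chosen after the trend was seen) left 4227 DEGs, of which 3569 were shared with the first set. For the lists below, the shares of higher and of lower DEGs among all genes at a similar level are the background to be read beside their counts. The share of higher DEGs was 24.5% at 2 to 5 CPM, 23.6% at 5 to 10 CPM and 19.8% at 10 to 25 CPM. It was 13.9% at 25 to 50 CPM, 10.5% at 50 to 100 CPM and 8.39% at 100 to 250 CPM.

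**Figure D1:**
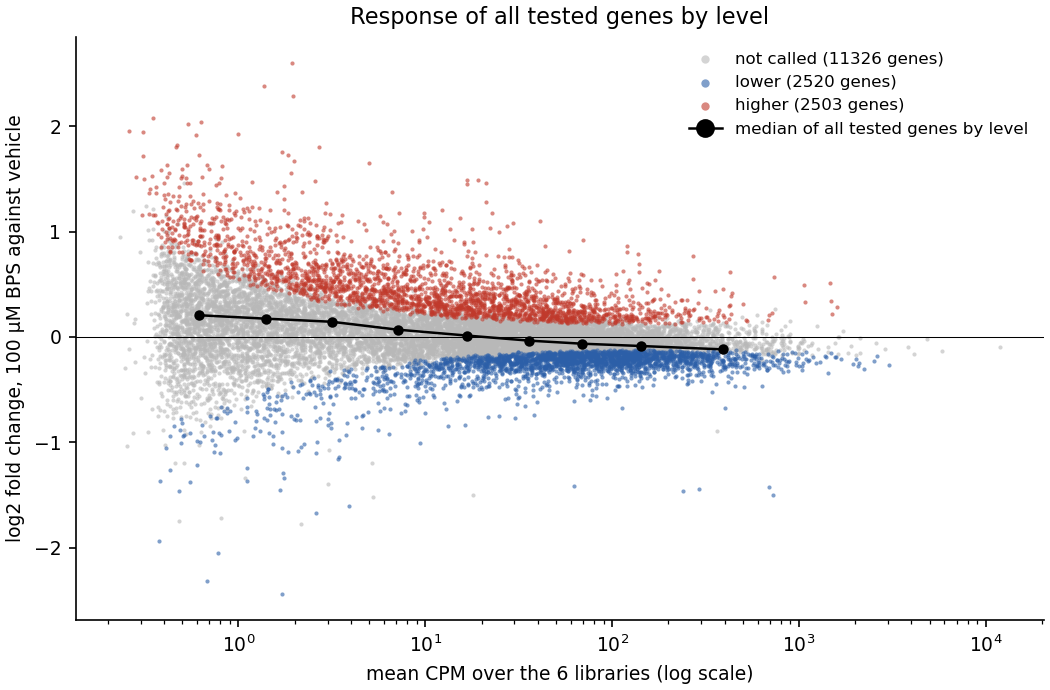
Each point is 1 of the 16349 tested genes, plotted by its mean CPM over the 6 libraries (log scale) and its log2 fold change at 100 µM against vehicle, with DEGs in red (higher) and blue (lower). The black line joins the median of all tested genes in 9 ranges of level and runs from 0.21 at the lowest to -0.12 at the highest.

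The response was spread over the genome. On the autosomes and the X chromosome the share of tested genes that were DEGs ran from 28.4 to 34.7%, and the median log2 fold change from -0.04 to 0.02. Of 22 tested genes of the mitochondrial genome, all of them tRNAs apart from mt-Rnr1 and mt-Rnr2, 9 tRNAs were higher and 0 genes lower (protein-coding genes of the mitochondrial genome were not analysed here). Among 1565 lncRNAs, whose median level was 1.06 CPM, 235 were higher and 49 lower. These counts were near the shares among all genes of 1 to 2 CPM, the range of their median (16.2 and 3.57%). Genes with a RefSeq promoter of fewer than 5 CpGs in the 250 bases before the start were more often higher, 303 against 114 lower of 1568, but their median level was also low, at 2.01 CPM. Within ranges of level, with promoters split at 10 CpGs, a difference in the share of higher DEGs was seen above 5 CPM but not below. Between 5 and 25 CPM, 25.5% of genes with fewer than 10 promoter CpGs and 19.8% of the others were higher. The shares were 14.9 and 11.4% between 25 and 100 CPM, and 15.5 and 7.08% above 100 CPM. Below 5 CPM they were 17.5 and 18.4%. The shares of lower DEGs, in the same order of promoters, differed less up to 100 CPM. They were 11.4 and 10.9% between 5 and 25 CPM, 21.0 and 21.5% between 25 and 100 CPM, and 32.2 and 36.0% above 100 CPM. Between 25 and 100 CPM the median log2 fold changes were -0.048 and -0.049.

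The largest increases included genes of the cell surface and cytoskeleton. Like the largest decreases below, they were chosen among DEGs whose groups did not overlap, so that the absence of overlap follows from the choice. Gpnmb, a membrane glycoprotein linked to lysosomes, was at 5.35, 6.73 and 17 CPM in the vehicle and 24.7, 25.5 and 21.5 CPM at 100 µM. Vehicle replicate 3 lay well above the other 2 vehicle libraries (log2 fold change 1.49, standard error 0.28, adjusted p = 6.13e-04). Krt18, a keratin of simple epithelia, went from 8.78, 8.96 and 12.6 to 26, 26.4 and 31.9 CPM. Its partner Krt8 was at 109, 108 and 111 CPM without BPS and 165, 166 and 173 CPM with it. The log2 fold changes were 1.49 for Krt18 and 0.62 for Krt8. Cyba, a membrane subunit of NADPH oxidase, which makes superoxide, lies at chr8:122424771-122432940. It rose from 11.8, 11.2 and 14 to 27.3, 30.5 and 32.1 CPM (log2 fold change 1.28, adjusted p = 2.31e-07). No exposed library came near the vehicle range.

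B2m, the light chain of MHC class I, lay in tight groups. Its levels were 13.7, 13.3 and 15.2 CPM in the vehicle and 31.1, 31.7 and 32.4 CPM after BPS (log2 fold change 1.18, standard error 0.10). The class I heavy chains H2-D1 and H2-K1 rose as well, by 0.74 and 0.55 on the log2 scale (H2-K1 not without vehicle replicate 2, 100 µM replicate 1 or 100 µM replicate 2), as did Stat2, a factor of interferon signalling, by 0.37. These 4 were the DEGs among 13 tested interferon and innate response genes. The median level of that list lay at 10 to 25 CPM, where 19.8% of all genes were higher. Tmc4, a membrane protein of the transmembrane channel-like family, went from 8.0, 7.03 and 7.23 to 16.7, 17.1 and 17.6 CPM. Cemip, a hyaluronan-degrading protein, was at 4.07, 4.56 and 4.64 and 9.78, 11.1 and 9.22 CPM, and Phlda1, a gene induced by ERK signalling, at 5.03, 5.60 and 7.45 and 11.8, 13.3 and 15.6 CPM. The absence of overlap for these 3 follows from how they were chosen.

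**Figure D2:**
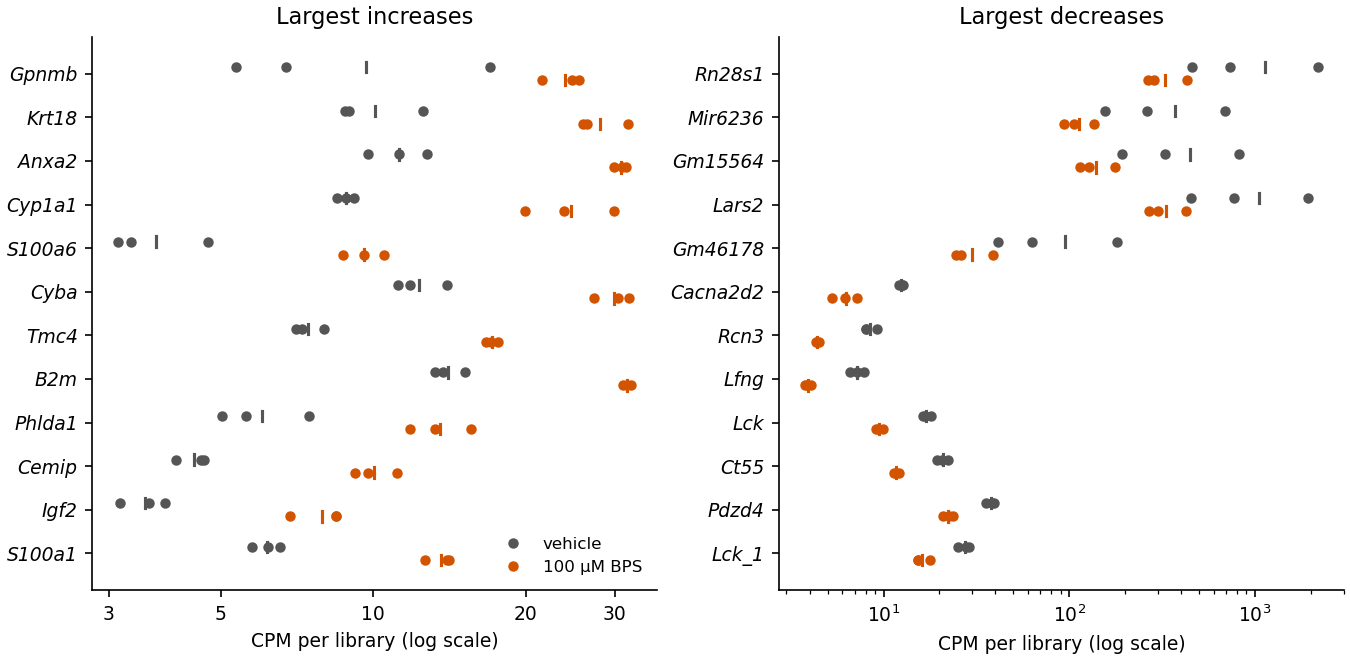
CPM in each library (log scale) of the 12 DEGs that rose most and the 12 that fell most on the log2 scale, at a mean of 5 CPM or more, with vehicle in grey, 100 µM BPS in orange, and a bar at each group's mean. The first 5 genes of the right panel share a wide vehicle group that reaches from 457 to 2188 CPM for Rn28s1.

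The 5 largest decreases moved together and included an rRNA. Rn28s1, the 28S rRNA, was at 457, 2188 and 735 CPM in the vehicle and 285, 265 and 429 CPM at 100 µM. Mir6236, Gm15564, Lars2 and Gm46178 showed the same order of libraries, with vehicle replicate 2 highest. Lars2 encodes a mitochondrial leucyl-tRNA synthetase and was counted here with the rRNA-type transcripts. Without vehicle replicate 2 the log2 fold change of Rn28s1 was -0.86, against -1.50 with all libraries, and it no longer passed the test. None of these 5 transcripts passed without vehicle replicate 2, vehicle replicate 3, 100 µM replicate 1 or 100 µM replicate 2. Transcripts of rRNA type made up 0.28 to 0.68% of the reads in the vehicle libraries and 0.26 to 0.33% at 100 µM. With that share as a covariate there were 4097 DEGs.

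The other large decreases lay in tight groups. Cacna2d2, an auxiliary subunit of voltage-gated calcium channels, fell from 12.5, 12.1 and 12.8 to 6.23, 7.21 and 5.27 CPM (log2 fold change -1.0, adjusted p = 5.47e-06). Rcn3, a calcium-binding protein of the secretory pathway, fell from 9.17, 7.99 and 8.04 to 4.48, 4.39 and 4.33 CPM. Lfng, which adds sugars to Notch receptors, fell from 6.57, 7.86 and 7.23 to 3.76, 4.07 and 3.86 CPM. Lck, a kinase best known from T cells, was at 16.3, 17.9 and 16.7 CPM in the vehicle and 9.05, 9.38 and 9.96 CPM at 100 µM. Lck_1, a second entry of the gene, whose reads may be shared with the first, had a log2 fold change of -0.76. The X-linked genes Ct55 and Pdzd4 completed the set. Ct55 was at 20.7, 19.5 and 22.3 and 11.6, 12 and 11.3 CPM in the vehicle and at 100 µM, and Pdzd4 at 38.6, 35.8 and 39.4 and 20.9, 22.5 and 23.5 CPM.

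Targets of the aryl hydrocarbon receptor were higher at 100 µM, while the receptor itself was not called. Of 6 tested targets, 5 were higher and 0 lower, with a median log2 fold change of 0.66, whereas Ahr and its partner Arnt were not called. The share of higher DEGs among all genes of 5 to 10 CPM, the range of the targets' median, was 23.6%. Cyp1a1, the P450 that serves as the receptor's reporter gene, stood at 8.496, 9.16 and 8.84 CPM in the vehicle and 19.9, 23.8 and 29.96 CPM at 100 µM, with the groups far apart. Cyp1b1, a P450 that hydroxylates estrogens, went from 0.678, 1.03 and 0.804 to 2.45, 2.59 and 3.48 CPM (log2 fold change 1.73). Ahrr, the repressor that the receptor induces against itself, rose from 1.18, 0.733 and 1.10 to 1.80, 2.09 and 2.09 CPM (log2 fold change 0.99, adjusted p = 0.00104). Both had few reads, and with genes kept only at 5 CPM or more the list held 3 higher members. Tiparp, another inducible repressor, and Nqo1, a quinone reductase, rose by 0.18 and 0.33 on the log2 scale, Tiparp not without vehicle replicate 1 or 100 µM replicate 1. Cyp1a2 stayed below the level tested, at 0.233 CPM or less in all 6 libraries. The receptor binds the core GCGTG, which occurred on either strand in the 250 bases before the start of 5 of the 6 listed genes with a RefSeq promoter and in 47.4% of all tested genes with one. Its share was 44.0% among all higher DEGs and 52.5% among all lower DEGs. Among the 5 listed genes with the core, 4 were higher, and Arnt, the partner of the receptor, was not called. The promoters of the 2 targets below are printed because both genes rose and their cores lie close to the start. Sequences are from RefSeq (GRCm38.p6), read 5′ to 3′ on the gene's strand, with the core in capitals.
Cyp1a1 (chr9:57697363-57697612, plus strand): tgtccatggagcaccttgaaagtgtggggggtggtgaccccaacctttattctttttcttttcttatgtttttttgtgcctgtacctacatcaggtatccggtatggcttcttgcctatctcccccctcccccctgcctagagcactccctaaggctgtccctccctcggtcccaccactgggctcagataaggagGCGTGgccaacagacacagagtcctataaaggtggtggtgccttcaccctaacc
Ahrr (chr13:74292332-74292581, minus strand): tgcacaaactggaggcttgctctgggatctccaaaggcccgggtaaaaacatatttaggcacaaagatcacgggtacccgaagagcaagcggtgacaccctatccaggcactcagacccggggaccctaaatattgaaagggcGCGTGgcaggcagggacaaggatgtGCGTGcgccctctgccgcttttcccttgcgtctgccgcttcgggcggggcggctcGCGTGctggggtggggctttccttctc
Cyp1a1 had 1 core, beginning 54 bases before the start, and Ahrr had 3, the nearest at 27 bases.

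Transcripts of the estrogen receptors were close to absent. At the protein level, the study reported iPSCs as positive for ERβ, the product of Esr2, and negative for ERα by immunolabelling. Esr1 was at 0.0879 CPM or less in every library and Esr2 at 0.147 CPM or less, and Gper1, a membrane estrogen receptor, at 0.233 CPM or less. None of the 3 passed the filter for testing, and their differences were not detectable at this depth. Of the orphan G protein-coupled receptors that the study names as possible partners of bisphenols, Gprc5a was higher (49.2, 48.9 and 51.8 against 56.5, 61.4 and 59.2 CPM), Gpr161 rose by 0.27 and Gpr89 fell by 0.22 on the log2 scale. Gprc5a and Gpr161 did not pass without 100 µM replicate 2, and Gpr161 and Gpr89 did not without vehicle replicate 3 or 100 µM replicate 3. Gpr161 also did not without 100 µM replicate 1, nor Gpr89 without vehicle replicate 1. Gprc5b and Gpr107 were not called (log2 fold changes -0.08 and -0.01). Gusb, often used as a reference gene, was higher at 100 µM, at 18.1, 19.4 and 18.8 against 23.8, 26.2 and 24.1 CPM.

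Annexins and their S100 partners were higher as a group. These proteins bind calcium and membranes. Of 14 tested members 9 were higher and 0 lower, against 19.8% higher among all genes of 10 to 25 CPM, the range of the list's median. The median log2 fold change was 0.76, and in each exposed library the median over members lay 0.67 to 0.84 above the vehicle mean. Anxa2 went from 9.78, 11.2 and 12.8 to 29.9, 31 and 31.6 CPM, Anxa4 from 21, 19.8 and 21.6 to 38, 34.7 and 32.7 CPM and Anxa5 from 13.2, 12.4 and 11.5 to 21.6, 21.6 and 19.8 CPM. The S100 genes S100a1 and S100a13 stood at 6.21, 5.76 and 6.54 and 9.67, 8.33 and 8.73 CPM in the vehicle. At 100 µM their levels were 14, 14.1 and 12.7 and 16.6, 17.7 and 20.3 CPM. Leaving out any 1 library gave 8 or 9 higher members.

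Intermediate filaments changed in both directions, with 4 of 12 tested higher and 5 lower. At 50 to 100 CPM, the range of the list's median, 10.5% of all genes were higher and 25.7% lower. Of 5 keratins, Krt8, Krt18 and Krt19 were higher and Krt42 fell by 0.28 on the log2 scale. Vim, the filament of mesenchymal and undifferentiated cells, fell from 408, 404 and 391.9 to 263, 287 and 291 CPM. Of the nuclear lamins, Lmna was higher by 0.21, and Lmnb1 and Lmnb2 fell by 0.27 and 0.24 on the log2 scale. Actin-linked genes that rose included Lcp1, which bundles actin, from 24.6, 25.4 and 22.1 to 41.1, 38.5 and 37.7 CPM, and Gsn, which severs it, from 4.75, 5.30 and 6.94 to 11.7, 10.3 and 11.8 CPM. In all 10 of 30 such genes were higher and 1 lower, or 18 higher after cyclic loess. At 100 to 250 CPM, the range of the actin list's median, 8.39% of all genes were higher and 32.9% lower. The adhesion genes Itga3, an integrin, and Zyx, of focal adhesions, rose by 0.52 and 0.71, among 14 higher and 6 lower of 44 adhesion and matrix genes. The adhesion list had its median level at 50 to 100 CPM, where 10.5% of all genes were higher and 25.7% lower.

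Early response genes were higher 24 h after the exposure had ended. Of 19 tested AP-1 and immediate early genes 9 were higher and 0 lower. At 10 to 25 CPM, the range of the list's median, 19.8% of all genes were higher. Jun, a subunit of AP-1, was at 13.1, 17.4 and 27.8 CPM in the vehicle and 32.6, 39.4 and 47.3 CPM at 100 µM, and vehicle replicate 3 lay well above the other vehicle libraries. Maff, a small partner factor, had tight groups, at 4.93, 5.0 and 4.75 and 8.49, 8.44 and 8.99 CPM. Klf6 rose by 0.60. The count for this list rested on single libraries, since 5 members were higher without vehicle replicate 1, without vehicle replicate 2 or without 100 µM replicate 3. Targets of YAP and TEAD, the factors that respond to cell shape, included Ccn1 (12.5, 16.8 and 20.6 against 25.6, 33.5 and 40.1 CPM) and Ccn2 (27, 29.4 and 37.4 against 48.8, 57.6 and 63.5 CPM), with 6 higher and 2 lower of 15, or 10 higher under upper quartile scaling. At 25 to 50 CPM, the range of the YAP list's median, 13.9% of all genes were higher and 17.6% lower. Of 11 NF-kB and inflammation genes 7 were higher and 0 lower, among them the receptor Ltbr, the subunits Nfkb1 and Nfkb2, and the feedback inhibitor Tnfaip3, with log2 fold changes of 0.80, 0.38, 0.29 and 1.21. The median level of the NF-kB list, like that of the AP-1 list, was at 10 to 25 CPM, where 19.8% of all genes were higher.

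Genes of DNA replication and mitosis were lower. Of 55 replication and G1/S genes 30 were lower and 0 higher, and of 40 mitosis genes 31 were lower and 1 higher, with median log2 fold changes of -0.17 and -0.22. Genes of 100 to 250 CPM, the range in which both lists had their median level, were lower in 32.9% of cases with a median of -0.09. Ccne1, the cyclin that starts S phase, fell from 104, 104 and 97.4 to 77.3, 74.6 and 71.3 CPM (adjusted p = 1.49e-05). Rfc4, a clamp loader at replication forks, fell from 50.3, 50.3 and 46.7 to 36.6, 33.2 and 36.4 CPM, and Mcm5, of the replicative helicase, from 755, 735 and 741 to 588, 611 and 599 CPM. In mitosis, Bub1b, a spindle checkpoint kinase, fell from 252, 251 and 242 to 192, 195 and 191 CPM. Aurka, a spindle kinase, went from 169, 168 and 163 to 131, 133 and 129.6 CPM, and Cdc20, which activates the anaphase-promoting complex, from 246, 235 and 228 to 181, 190.1 and 190.5 CPM. Pttg1, securin, was the exception and rose by 0.33, but not without 100 µM replicate 3. After cyclic loess 19 replication and 21 mitosis genes were lower, and without vehicle replicate 1 the replication count was also 19.

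Known cell cycle elements were searched on both strands in the promoters of these lists. TTTGAA, the core of the cell cycle homology region, lay in the 250 bases before the start of 11 of 33 mitosis genes with a promoter and of 13.4% of all tested genes, and 9 of those 11 were lower. TTTNNCGC, an E2F site, lay in 13 of 44 replication genes and in 7.94% of all. Among all lower DEGs the 2 elements were found in 14.6 and 10.4%, and among all higher DEGs in 13.1 and 5.79%. The examples show a mitotic and a replication gene that fell, with matches in capitals.
Cdc20 (chr4:118437344-118437593, minus strand): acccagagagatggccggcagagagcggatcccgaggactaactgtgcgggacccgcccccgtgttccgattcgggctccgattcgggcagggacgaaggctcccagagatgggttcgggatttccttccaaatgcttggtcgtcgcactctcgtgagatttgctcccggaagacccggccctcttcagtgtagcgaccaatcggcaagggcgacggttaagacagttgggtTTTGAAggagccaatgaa
Mcm5 (chr8:75109259-75109508, plus strand): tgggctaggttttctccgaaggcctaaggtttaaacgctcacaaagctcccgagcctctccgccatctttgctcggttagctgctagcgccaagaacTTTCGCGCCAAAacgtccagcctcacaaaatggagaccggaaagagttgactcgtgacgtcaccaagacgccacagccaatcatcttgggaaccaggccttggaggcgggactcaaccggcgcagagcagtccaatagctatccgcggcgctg
The 2 matches of Mcm5 lie on opposite strands and overlap.

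Genes of ribosome production and tRNA loading were lower. Of 31 ribosome biogenesis genes 27 were lower and 0 higher, with a median log2 fold change of -0.23 and library medians of -0.22 to -0.26. Heatr1, which is needed for rRNA transcription and processing, fell from 343, 320.4 and 314 to 260.2, 259 and 240.3 CPM, and the helicase Ddx21 from 616, 592 and 568 to 481, 463 and 444 CPM. Bop1 and Rrp12, both of ribosome assembly, fell by 0.32 and 0.30 on the log2 scale. Of 20 aminoacyl-tRNA synthetases, which load tRNAs, 17 were lower and 0 higher. Gars and Dars fell from 461, 448 and 422 and 304, 287 and 290.4 CPM to 367, 367 and 356 and 241, 229 and 222 CPM. After cyclic loess the counts were 16 and 11. Of all genes, 32.9% were lower at 100 to 250 CPM, where the ribosome biogenesis list had its median level, and 40.8% above 250 CPM, where the synthetases had theirs. Of the ribosomal proteins, also above 250 CPM at the median, 6 of 78 were lower and 0 higher, fewer than among all genes of that level, and 0 were lower after cyclic loess. In the third 100 µM library their median lay 0.04 above the vehicle mean, and in the others 0.20 and 0.14 below it. Leaving out the first or second 100 µM library gave 2 lower members, leaving out the third gave 11, and leaving out vehicle replicates 1, 2 or 3 gave 1, 2 and 3.

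Genes of serine synthesis and the linked one-carbon cycle were lower. These enzymes make serine, glycine and the folate-bound carbon used for nucleotides. Psat1, the transaminase of the pathway, fell from 517, 509 and 460.0 to 320.4, 312 and 296 CPM (log2 fold change -0.68, adjusted p = 5.41e-06). Phgdh, which commits carbon to the pathway, fell from 97.2, 91.8 and 85.9 to 62.1, 66.9 and 65.3 CPM, and Psph, which completes it, from 38.8, 38 and 33.1 to 27.1, 25.9 and 26.3 CPM. All 5 serine synthesis genes were lower, with a median log2 fold change of -0.47. The mitochondrial folate enzymes Mthfd2 and Mthfd1l fell by 0.46 and 0.47. Over the 18 tested genes 12 were lower. At 100 to 250 CPM, the range of the list's median, 32.9% of all genes were lower. Cth, which makes cysteine, was higher by 0.17, a call lost without vehicle replicate 1 or 3 or 100 µM replicate 2 or 3. Leaving out any 1 library gave 12 lower members as well.

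**Figure D3:**
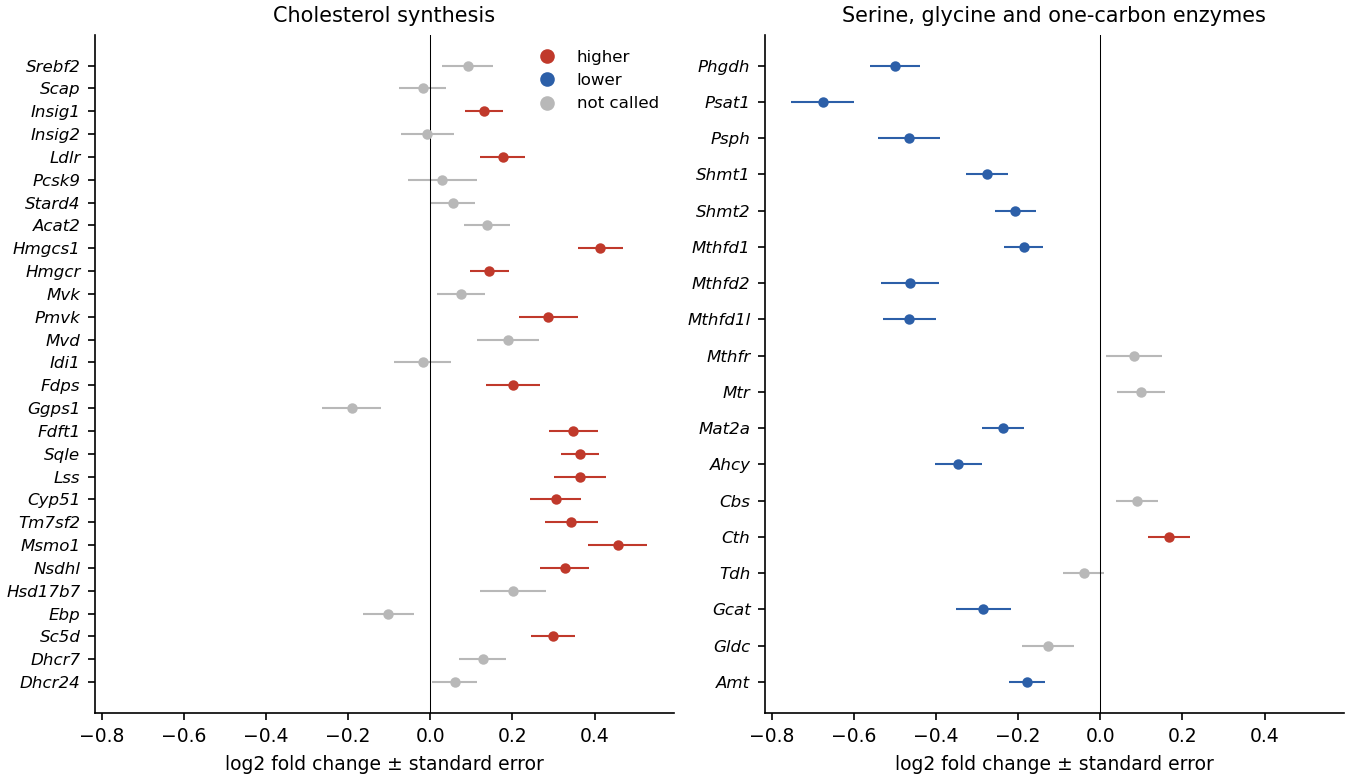
Log2 fold change at 100 µM against vehicle (points) with its standard error (bars) for 28 cholesterol synthesis genes, from regulators through the mevalonate arm to the sterol arm, and for 18 serine, glycine and one-carbon genes. In the sterol arm 8 of 12 enzymes were higher and the 5 serine synthesis enzymes run from -0.68 for Psat1 to -0.21 for Shmt2.

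Targets of the integrated stress response, in which ATF4 raises amino acid supply, were lower more often than higher, with 16 lower and 2 higher of 28, against 17.6% lower among all genes of 25 to 50 CPM, the range of the list's median. Chac1, a glutathione-degrading enzyme, fell from 6.10, 6.83 and 4.97 to 3.24, 3.52 and 2.98 CPM, Slc7a3, an arginine transporter, from 151, 154 and 145 to 119.8, 113 and 117 CPM, and Trib3, a feedback pseudokinase, from 43.9, 46.7 and 44 to 36.7, 36 and 33.6 CPM. Atf5 and Atf3 were the 2 that rose, by 0.46 and 0.41, Atf3 only with both vehicle replicates 1 and 2 and both 100 µM replicates 2 and 3 in the fit. In the endoplasmic reticulum, 9 of 22 chaperone genes were lower and 0 higher. At 50 to 100 CPM, the range of the median of these 22 genes, 25.7% of all genes were lower. The 9 included Hspa5, which fell from 676, 679.6 and 658 to 549, 537 and 553 CPM. Herpud1, of protein degradation at the endoplasmic reticulum membrane, fell by 0.55 on the log2 scale. The small heat shock gene Cryab rose from 1.89, 1.80 and 2.01 to 3.97, 4.46 and 4.45 CPM. TGATGNAA, the element bound by ATF4 with C/EBP factors, lay upstream of 7 of 25 genes of this list and of 2.49% of tested genes. Of the 7, 4 were lower, against 16 of 28 in the whole list. The element lay upstream of 0 of 15 serine and one-carbon genes and of 3 of 13 synthetases. Its share was 2.61% among all lower DEGs and 2.6% among all higher DEGs. The promoter of Chac1 is shown as the largest decrease among the members named here, with the element in capitals, in reverse orientation.
Chac1 (chr2:119350992-119351241, plus strand): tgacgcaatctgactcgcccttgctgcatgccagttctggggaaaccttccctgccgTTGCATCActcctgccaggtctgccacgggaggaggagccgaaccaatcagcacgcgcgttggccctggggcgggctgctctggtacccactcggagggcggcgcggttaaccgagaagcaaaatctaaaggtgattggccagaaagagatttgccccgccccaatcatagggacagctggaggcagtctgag

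Counts for the proteasome, the respiratory chain and splicing depended on single libraries. Of 32 proteasome genes 19 were lower and 0 higher, and of 75 nuclear genes of oxidative phosphorylation 23 were lower and 0 higher. Among all genes of 100 to 250 CPM, the range of both lists' medians, 32.9% were lower, so the respiratory count was near the background of its level. Psmd7, of the proteasome lid, fell from 269.9, 261 and 266 to 214, 221 and 228 CPM, and Atp5a1, of ATP synthase, from 607, 591 and 570.2 to 472, 483 and 483 CPM. After cyclic loess 6 proteasome and 10 respiratory genes were lower. Without vehicle replicate 1 the counts were 8 and 13, without 100 µM replicate 1 they were 10 and 14, and without 100 µM replicate 2 they were 9 and 13. Without vehicle replicate 2, 15 respiratory genes were lower. Splicing factors were lower in 11 of 27, near the 40.8% of all genes above 250 CPM. The lower ones numbered 1 after cyclic loess, 5 without vehicle replicate 1 and 6 without 100 µM replicate 2.

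Members of the cholesterol synthesis and lysosome lists were mostly higher where they changed, at levels where lower DEGs were the more frequent, with 234 higher and 574 lower of 2233 genes between 50 and 100 CPM. Of 28 cholesterol genes 14 were higher and 0 lower, with 8 of 12 in the sterol arm, 4 of 9 in the mevalonate arm and 2 of 7 regulators. Hmgcs1, which makes HMG-CoA, rose from 371, 371 and 379 to 508, 486 and 501 CPM (log2 fold change 0.41, adjusted p = 2.20e-05). Sqle, squalene epoxidase, rose from 150.3, 142 and 145 to 183, 187 and 194 CPM and Msmo1, a sterol demethylase, from 162, 148 and 153 to 212, 203 and 220.2 CPM. Srebf2, the factor that switches the pathway on, was not called (log2 fold change 0.09, named after its value was seen), but was higher after cyclic loess. Leaving out 1 library gave 10 to 13 higher members. The sterol response element TCACNCCAC lay upstream of Hmgcs1 only among 20 listed genes with a promoter, and of 1.26% of tested genes. CCAAT boxes, which flank such elements, lay upstream of 18 of the 20 and of 40.6% of tested genes. The sequence of Hmgcs1 shows the sterol element in capitals.
Hmgcs1 (chr13:119690101-119690350, plus strand): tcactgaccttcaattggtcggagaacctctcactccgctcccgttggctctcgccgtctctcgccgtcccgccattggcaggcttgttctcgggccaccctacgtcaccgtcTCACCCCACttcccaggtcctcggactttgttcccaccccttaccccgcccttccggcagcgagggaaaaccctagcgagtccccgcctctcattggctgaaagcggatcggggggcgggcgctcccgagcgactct

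Lysosomes degrade macromolecules with acid hydrolases under a proton pump. Of 46 tested genes 23 were higher and 1 lower, with a median of 0.24 for the hydrolases and membrane proteins (17 of 25 higher) and 0.14 for the proton pump (5 of 13 higher). Hexa, a hexosaminidase, rose from 133, 137 and 143 to 187, 206 and 209 CPM, Ctsl, a cathepsin, from 88.2, 87.6 and 94.6 to 141, 138 and 137 CPM, and Tcirg1, of the pump, from 13.6, 15.3 and 15.4 to 22, 22.3 and 23.7 CPM. Tfeb, a factor that activates lysosomal genes, was the member that fell, by 0.17, a call lost without any 1 of vehicle replicates 1 and 2 and 100 µM replicates 1 and 2. Its E-box TCACGTGA lay upstream of 6 of 37 listed genes and of 1.63% of tested genes, and 4 of those 6 were higher. Cln3, a lysosomal membrane protein that rose from 27.3, 29.3 and 32 to 39.5, 45.3 and 43.1 CPM, is shown with the E-box in capitals, at the one of its annotated starts that carries it.
Cln3 (chr7:126583237-126583486, minus strand): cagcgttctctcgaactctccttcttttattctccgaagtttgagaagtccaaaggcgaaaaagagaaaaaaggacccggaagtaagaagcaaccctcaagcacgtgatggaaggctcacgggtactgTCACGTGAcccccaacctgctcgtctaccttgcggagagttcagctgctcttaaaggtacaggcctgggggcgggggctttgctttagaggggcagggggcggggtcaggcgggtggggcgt

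**Figure D4:**
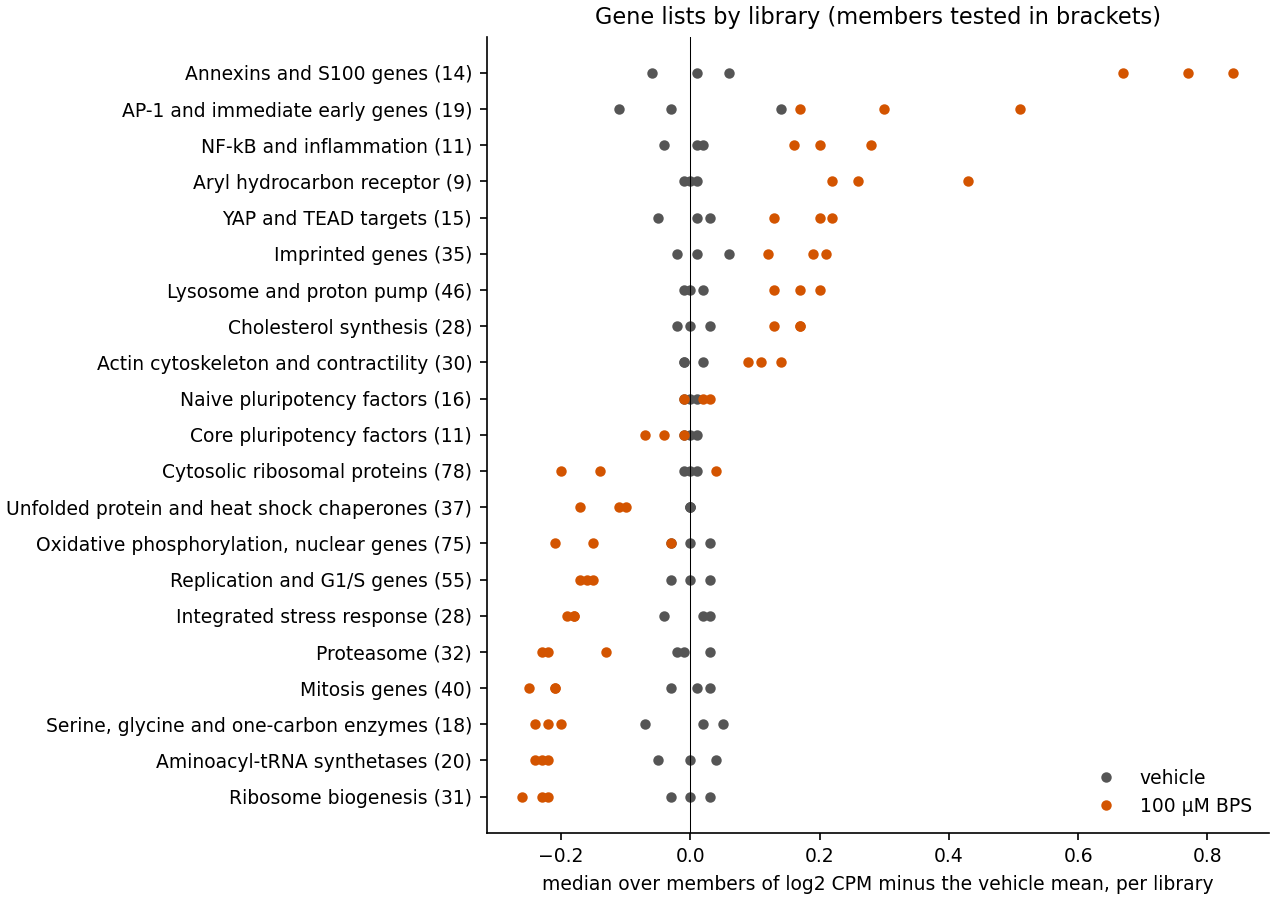
For 21 gene lists, each point is 1 library and gives the median over tested members of log2 CPM minus the vehicle mean, with vehicle in grey and 100 µM BPS in orange. Annexins and S100 genes lie at 0.67 to 0.84 in the exposed libraries, ribosome biogenesis at -0.22 to -0.26, and the core and naive pluripotency lists at -0.07 to 0.03.

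The central pluripotency factors did not pass the test. Pou5f1, Sox2 and Nanog were not called, with log2 fold changes of 0.03, -0.01 and -0.11, and for Nanog the 3 exposed libraries (660.0, 633 and 622 CPM) were all below the vehicle libraries (703, 696 and 668 CPM). Pou5f1 passed the test after cyclic loess and Nanog in a fit of the 6 libraries alone. Of 16 naive factors, Tbx3, Klf4, Socs3 and Nr0b1 were higher (Nr0b1 not without vehicle replicate 1, 2 or 3 or 100 µM replicate 2 or 3), and 8 factors were higher after cyclic loess. At 100 to 250 CPM, the range of the naive list's median, 8.39% of all genes were higher and 32.9% lower. Klf4 rose from 373, 391 and 379 to 451, 466 and 483 CPM. Dppa3, which protects methylation marks in the egg, fell from 36.4, 37.7 and 39 to 23.9, 24.7 and 27.5 CPM, and Pecam1 fell by 0.23. Lin28a, which blocks let-7 miRNAs, fell from 306, 296 and 273 to 217, 226 and 217 CPM. Dppa5a, an RNA-binding protein of pluripotent cells, was among the 6 genes that gained the most CPM, at 1347, 1325 and 1252 and 1631, 1582 and 1746 CPM.

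Several lineage markers changed at low levels. Of 12 trophectoderm genes 6 were higher and 2 lower. At 5 to 10 CPM, the range of the list's median, 23.6% of all genes were higher and 8.41% lower. Cdx2, a factor of that lineage, rose from 5.64, 4.83 and 4.27 to 7.47, 9.14 and 9.75 CPM, whereas Tfap2c, which also serves in naive and germ cells, fell from 61.1, 56.4 and 62.4 to 42.8, 41.5 and 40.9 CPM. Among neural genes Sox1 rose by 0.59, and Gap43 and Neurod1 fell by 1.45 and 1.04 on the log2 scale. Of 14 primitive endoderm genes 4 were higher and 1 lower. These counts were near the shares among all genes of 2 to 5 CPM, the range of the list's median (24.5 and 5.79%). Gata4 was higher, at 4.0, 3.63 and 4.35 against 4.92, 5.16 and 4.74 CPM, a call that was lost on leaving out any library but vehicle replicate 3. The summed level of the trophectoderm markers Cdx2, Gata3 and Hand1, most of it Cdx2, was 4.53 to 5.71 CPM in the vehicle and 8.00 to 10.5 CPM at 100 µM. Other marker sums rose without overlap as well, from 6.68 to 7.82 to 9.05 to 9.27 CPM for primitive endoderm. In the vehicle and at 100 µM, mesoderm markers summed to 37 to 43.3 and 44.4 to 49.5 CPM. Neural markers summed to 4 to 5.44 and 6.46 to 7.54 CPM, and germ cell markers to 10.6 and 14.2 to 14.3 CPM. Two-cell-like markers overlapped. The 8 iPSC markers summed to 4810 to 4940 and 4960 to 5050 CPM.

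Imprinted genes, expressed from 1 parental allele, were higher in 13 and lower in 3 of 35 tested. At 10 to 25 CPM, the range of their median, 19.8% of all genes were higher and 12.6% lower. Meg3, a maternally expressed lncRNA at chr12:109540996-109571729, rose from 183, 204 and 213 to 333, 333 and 353 CPM (log2 fold change 0.77, adjusted p = 1.13e-06). Its neighbours on the same chromosome, Rian and Rtl1, rose by 0.43 and 0.59. Igf2, a fetal growth factor, went from 3.61, 3.16 and 3.87 to 6.86, 8.44 and 8.43 CPM. Usp29 and Peg3, which are paternally expressed neighbours on chromosome 7, fell by 0.63 and 0.36 on the log2 scale, and Mest fell by 0.42. The level of an imprinted gene in these data does not show which allele was read.

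Some enzymes of DNA methylation changed as well. Dnmt3b, a de novo methyltransferase, fell from 189.8, 186 and 185 to 149.7, 161 and 154 CPM, and Dnmt3l, its cofactor, rose from 13.3, 11.9 and 15 to 18.5, 23.4 and 21.6 CPM. Uhrf2 fell from 54.3, 54 and 52.6 to 35.2, 38.9 and 35.8 CPM and Tdg, a glycosylase of active demethylation, by 0.25. Tet2, which oxidizes methylcytosine, was at 88.2, 83.6 and 77.9 CPM in the vehicle and 122, 106 and 98.7 CPM at 100 µM. Its mean levels at 1 and 50 µM, compared with the same vehicle libraries, were 83.7 and 88.2 CPM. Of 20 germline genes silenced by methylation 3 were higher and 2 lower, and after cyclic loess 1 was higher. At 2 to 5 CPM, the range of the list's median, 24.5% of all genes were higher and 5.79% lower. Dazl, one of the 3, was at 4.39, 5.23 and 4.68 and 7.75, 7.25 and 7.48 CPM.

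By the amount of RNA, the genes that gained most were Mid1, a ubiquitin ligase on the X chromosome, from 1103, 1251 and 1278 to 1611, 1710 and 1859 CPM, and the nuclear lncRNA Malat1, from 842, 830.2 and 972 to 1280, 1186 and 1256 CPM. Apoe, a lipid carrier, and Slc2a3, a glucose transporter, rose by 0.28 and 0.33 on the log2 scale. Erdr1_1, a second entry of Erdr1 whose reads may be shared, rose by 0.57. Among losses, Ptma, prothymosin, fell from 3357, 3275 and 3307 to 2685, 2729 and 2869 CPM, Npm1, a nucleolar chaperone, from 2516, 2459 and 2441 to 1970, 1922 and 2105 CPM, and Ncl, nucleolin, from 2766, 2720 and 2686 to 2361, 2267 and 2358 CPM. Rps2, a ribosomal protein, fell by 0.28. Ptma, Ncl and Rps2 did not pass the test after cyclic loess, nor Ncl without 100 µM replicate 2.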

How the data were processed

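RNA-seq was done on 12 libraries of the iPSC dose series, of which the 3 vehicle and the 3 100 µM libraries are reported. Per the study's methods, poly(A) RNA went into stranded libraries, and the authors aligned and counted reads on mm10 with Rsubread, and normalized them with TMM in edgeR. For the counting, the annotation, strand setting, filters and versions were not given in the sources at hand. The authors deposited log2 CPM, each after adding 0.0313 CPM, so a gene without reads stands at -5 and fold changes of low genes are understated. Whole reads were recovered from these values, within 0.05 reads, for all values of the 12 libraries, and gave the depths. Replicates differed by more than sampling noise, most of all at 1 µM. The mean chi-square per gene between 2 replicates was 19.19 to 25.98 at 1 µM. It was 3.732 to 7.568 in the vehicle and 3.773 to 7.441 at 100 µM.

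Genes with at least 0.5 CPM in at least 3 of the 12 libraries were tested in 1 limma-trend fit of the 4 dose groups (limma 3.58.1, R 4.3.3), two-sided, with Benjamini-Hochberg adjustment and a threshold of 0.05. Tables and figures used Python 3.11.15, pandas 2.3.3, numpy 2.4.6 and matplotlib 3.10.9. The fit was tested on simulated data with known changes. Gene symbols matched RefSeq (GRCm38.p6), which gave promoters for 77.5% of the tested genes, or 11986 symbols. Old histone symbols and Mars were matched through RefSeq synonyms.

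Named genes were the 12 largest increases and decreases in log2 CPM among DEGs of at least 5 CPM without overlap between groups, the 6 largest gains and losses in CPM, in each list described the members of smallest adjusted p, 5 at most per direction, and its defining members, and a fixed set of receptors and markers. Members and gene lists were chosen with earlier results of these data known. Alternatives were another added CPM, filter, scaling or set of libraries, a replicate block, a covariate for rRNA-type transcripts, limma-voom on the recovered reads, and leaving out each library.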

Additional observations from a re-analysis of the deposited data

How the results depend on the processing

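Most counts kept their direction, but many, including that of all DEGs, left the range of 1.5 times the reported number under at least 1 alternative. Those for annexins and S100 genes, mitosis, serine and one-carbon enzymes, cholesterol synthesis and the lysosome stayed within it. The number of DEGs was 3322 to 4271 when 1 library was left out, 6448 in a fit of the 6 libraries alone and 4930 with a replicate block. The replicate numbers gave no sign of pairing, as deviations of same-numbered libraries correlated by 0.05, -0.02 and 0.09. The lower DEGs numbered 1516 to 2082 when 1 library was left out. DEGs of at least 2-fold depended on the added CPM, with 93 at 0.25 and 29 at 1, and on the filter, with 473 without one and 33 at 5 CPM, by the construction of these settings. That filter left 3 aryl hydrocarbon receptor members. The 6-library fit gave 20 lower chaperones, 41 lower respiratory genes and 27 lower ribosomal proteins, and the upper quartile gave 12 proteasome genes and 2 ribosomal proteins.

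Cyclic loess, added after the values were seen, gave 18 higher actin genes and lowered the lower counts to 19 for replication, 16 for ribosome biogenesis, 11 for synthetases, 6 for the proteasome, 10 for respiration, 0 for ribosomal proteins and 1 for splicing. It also gave 8 higher naive factors, 1 higher germline gene, 6 higher histone methylation genes and 0 lower NRF2 and glutathione genes. Upper quartile scaling gave 10 higher YAP targets, 4 higher histone methylation genes and 2 lower NRF2 and glutathione genes, and the planned rRNA covariate 2 higher primitive endoderm genes and 2 lower NRF2 and glutathione genes. Leaving out 1 library gave ranges of 5 to 11 for AP-1 genes, 19 to 26 for replication, 8 to 19 for the proteasome, 13 to 30 for respiration, 1 to 11 for ribosomal proteins and 5 to 10 for splicing.

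The planned rRNA-type covariate took RefSeq rRNAs with the list as written. Its members were redefined after values had been seen, so every definition tried is given. The planned one left 4097 DEGs and 3 lower ribosomal proteins. Without mitochondrial rRNAs there were 3419 DEGs (1617 lower), without Lars2 as well 3516 (1669 lower), and with Mir6236, Gm15564 and Gm46178 added 3380 (1597 lower). These last 3 definitions gave 5, 5 and 4 higher AP-1 genes, 11 lower proteasome genes each and 1 lower ribosomal protein each. The first and last of them gave 14 and 13 lower respiratory genes, and the last gave 6 higher actin genes. The cause of these shifts was not tested. Of 156 genes named in the text, 131 kept their side of the threshold under every alternative that gave them a value, and no called gene changed sign. Among 3105 such values, 147 no longer passed the threshold and 4 newly passed it.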

Other observations

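Signals of the NODAL and TGF-beta family moved in both directions, with 9 of 27 tested genes higher and 8 lower. At 25 to 50 CPM, the range of the list's median, 13.9% of all genes were higher and 17.6% lower. Tgfbr2, a TGF-beta receptor, rose from 1.57, 2.23 and 3.65 to 8.05, 8.09 and 6.22 CPM. Lefty1 and Lefty2, secreted inhibitors of NODAL, fell by 0.61 and 0.48 on the log2 scale, and Foxh1, which partners its SMAD factors, fell from 76.9, 77.3 and 73.3 to 56.1, 60.7 and 59.1 CPM. Bmp4 rose from 4.96, 5.23 and 6.21 to 7.49, 8.57 and 8.90 CPM and Id2, a target of BMP signals, by 0.72. Of 35 WNT genes 9 were higher and 5 lower, against 19.8 and 12.6% of all genes at 10 to 25 CPM, the range of the list's median. The ligand Wnt8a fell from 1.82, 2.93 and 2.63 to 0.747, 1.03 and 1.18 CPM.

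Glutathione transferases, which attach glutathione to foreign compounds, were higher in 7 and lower in 0 of 13, with Gsto1 at 20.49, 21.2 and 25.9 CPM in the vehicle and 31.3, 33.9 and 34.4 CPM at 100 µM. At 25 to 50 CPM, the range of the transferases' median, 13.9% of all genes were higher. The targets of NRF2 were higher in 2 and lower in 4 of 25, fewer lower than the 32.9% of all genes of 100 to 250 CPM, and the lower genes of the NRF2 and glutathione list together numbered 2 under upper quartile scaling and 0 after cyclic loess. Plk2, a target of p53, rose from 79.6, 84.4 and 97.7 to 143, 153 and 160.3 CPM, within a list in which 6 of 24 were higher and 1 lower. The share of higher DEGs among all genes of 25 to 50 CPM, the range of that list's median, was 13.9%. The iron exporter Slc40a1 rose by 1.08 and the zinc importer Slc39a14 fell by 0.47. Histone methyltransferases were lower in 4 and higher in 1 of 25. The lower ones were again fewer than the 32.9% of all genes of 100 to 250 CPM, the range of the methyltransferases' median. The whole histone methylation list went from 1 to 6 higher after cyclic loess and to 4 under upper quartile scaling. Ezh2, of Polycomb, fell from 245, 244 and 229.8 to 197, 187 and 195 CPM.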
